A study of Mus musculus with 9 samples.

Results

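Cell division is carried out by a set of genes, many of which are switched on late in the cell cycle. Of this set, 46 genes were followed here in mouse embryonic fibroblasts (MEFs). The genes were taken from a fixed list of symbols: G2/M cyclins, mitotic kinases and phosphatases, spindle checkpoint, kinetochore, spindle and cytokinesis genes. The list has 47 entries, of which 46 match 1 row each among the 24341 genes of the expression tables; the entry Foxm1_none matches no gene symbol and was left out. The list is defined by gene symbols and not by a threshold on measured values, but it was chosen with earlier results of these data known. RNA-Seq of poly(A) RNA was available for 9 MEF samples of strain C57BL/6: 3 WT, 3 labelled Atm-/- (ATM is the kinase that signals DNA breaks) and 3 labelled Sirt6-/- (SIRT6 is a chromatin-bound deacetylase). None of the samples carries a treatment label, and neither embryonic age, passage number nor number of cell lines behind each genotype is given in the labels. The study obtained Sirt6-/- MEFs and MEFs lacking both Atm and p53 from other laboratories. Its methods call the MEFs lacking Atm and p53 immortalized, and their wording can be read to include the Sirt6-/- MEFs. Its labels list mice with and without p53 among the cell sources without tying them to samples. A genotype may therefore stand for a single line.

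Entry into mitosis requires Cdk1 bound to cyclin B. Cdc25 phosphatases remove the inhibitory phosphates that Wee1 and Pkmyt1 place on Cdk1, and Aurora and Polo-like kinases then build the spindle. Kinetochores join chromosomes to microtubules, and the spindle checkpoint proteins of the Bub and Mad families hold back the anaphase-promoting complex until every kinetochore is attached. Cdc20 then activates that complex, separase (Espl1) opens the cohesin rings, and a contractile ring organized by Prc1, Ect2, Racgap1 and anillin divides the cell. Many, but not all, of these transcripts accumulate in G2 and M. Their level in a culture depends both on the share of dividing cells and on the amount of RNA in each of them. Bulk RNA-Seq cannot tell these apart.

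Many of these genes carry short promoter elements known from G2/M control, the CHR (usual letters TTTGAA) and CCAAT boxes (letters CCAAT, bound by NF-Y). Promoter windows from 250 bases before to 50 bases after the start were found in RefSeq (GRCm38.p6) for 37 of the 46 genes, Sgol1 under its symbol Sgo1. On either strand, TTTGAA was present in 25 of 37 windows (67.6%), against 18.1% of the windows of 27025 genes. CCAAT was present in 29 of 37 (78.4%, against 37.9%), 2 or more CCAAT matches in 19 of 37 (51.4%, against 12.2%), and both motifs in 22 of 37 (59.5%, against 7.12%). A TTTGAA match lay between 30 bases before and 50 bases after the start in 22 of 37 windows, against 3.79% of all windows. This narrower range was not planned, and no test was made of it. In 1 window, that of Cdca8, the 2 motifs share a base. Neither motif was found in the windows of Plk4, Mad2l1, Birc5, Nuf2 and Pttg1. Only the first window listed per gene was searched, so a missing motif depends on the start used. The Pttg1 window, chr11:43425932-43426231, lies within the gene as placed by GENCODE M21 (chr11:43420250-43426251, minus strand). These are matches of letters, not measured binding. The 4 stretches shown run from 200 bases before to 30 bases after the start, 5′ to 3′ on the strand of the gene, with both motifs and their reverse complements in capitals. Ube2c, Top2a and Racgap1 are shown because they have the highest mean RPKM over all samples among the genes with both motifs, and Ccnb1, which was chosen after its values were seen, because it rose most and has CCAAT but no TTTGAA in its window.
Ube2c, chr2:164769729-164769958, plus strand: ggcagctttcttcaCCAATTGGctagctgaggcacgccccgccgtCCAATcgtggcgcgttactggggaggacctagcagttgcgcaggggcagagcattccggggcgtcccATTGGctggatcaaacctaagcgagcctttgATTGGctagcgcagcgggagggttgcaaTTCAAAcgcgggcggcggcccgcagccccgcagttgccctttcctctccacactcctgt
Top2a, chr11:99024160-99024389, minus strand: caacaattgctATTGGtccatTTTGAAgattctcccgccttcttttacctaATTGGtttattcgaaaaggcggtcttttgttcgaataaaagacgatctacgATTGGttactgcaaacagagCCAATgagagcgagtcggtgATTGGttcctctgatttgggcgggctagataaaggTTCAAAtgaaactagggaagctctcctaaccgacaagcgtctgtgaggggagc
Racgap1, chr15:99651627-99651856, minus strand: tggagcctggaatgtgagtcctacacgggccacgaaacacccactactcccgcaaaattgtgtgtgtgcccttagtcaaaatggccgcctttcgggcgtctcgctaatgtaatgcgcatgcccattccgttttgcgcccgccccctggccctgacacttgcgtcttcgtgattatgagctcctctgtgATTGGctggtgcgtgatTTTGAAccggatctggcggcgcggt
Ccnb1, chr13:100786457-100786686, minus strand: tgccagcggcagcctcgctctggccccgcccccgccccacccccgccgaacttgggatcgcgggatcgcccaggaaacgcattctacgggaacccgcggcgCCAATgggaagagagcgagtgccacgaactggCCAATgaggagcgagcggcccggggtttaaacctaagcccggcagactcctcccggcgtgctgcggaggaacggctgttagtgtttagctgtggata
In Ube2c, a pair of CCAAT matches on opposite strands overlaps within CCAATTGG.

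The samples had 32187040 to 33837949 counted reads, so that 3 reads correspond to 0.0887 to 0.0932 CPM (counts scaled to a common library size). Sirt6 had 4, 5 and 7 reads in the Sirt6-/- samples, against 364 to 487 in the other 6. Atm had 3443 to 3768 reads in the libraries labelled Atm-/-, above the 1536 to 1627 of WT; a count over the whole gene does not show whether the altered part of Atm is transcribed, so it does not check this label, and directions given for these libraries rest on the label alone. Trp53, which encodes p53, had 806 to 946 reads in the libraries labelled Atm-/-, against 6563 to 9218 in the other 6, so the Atm label and low Trp53 cannot be told apart in any comparison with them. Of 12 fibroblast markers, 11 had a mean of at least 1 RPKM in WT and in the libraries labelled Atm-/- and 10 in Sirt6-/-, with summed levels of 28167 to 31252 normalized CPM in WT, 9156 to 9400 in the libraries labelled Atm-/- and 20265 to 20609 in Sirt6-/-. Summed epithelial markers were 23.0 to 25.7, 88.2 to 95.6 and 20.4 to 24.1 normalized CPM in the same order. Krt8, Krt18, Krt19 and Cldn4 had a mean of at least 1 RPKM in each genotype, and Epcam and Cdh1 were below it. The endothelial, blood cell and muscle lists each summed to at most 23.0 normalized CPM in any sample. Of these, Cd68 and Cd14 had a mean of at least 1 RPKM in each genotype. Csf1r and Acta1 did so only in WT and Kdr only in the libraries labelled Atm-/-, whereas Ptprc was below it throughout. The part of these differences in the results was not tested. Normalized CPM are CPM after TMM scaling, which corrects for differences in library composition.

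All 46 genes were expressed well above the counting floor. In WT, where levels of genes were compared as RPKM (reads scaled by transcript length and library size), they ranged from 9.56 ± 0.680 for Wee1 to 175 ± 9.97 for Ube2c, the ubiquitin-conjugating enzyme of the anaphase-promoting complex (mean ± SD, n = 3). Racgap1 (123 ± 4.16), Ccna2 (112 ± 1.89), Birc5 (105 ± 10.5) and Top2a (103 ± 3.61) followed; the ranges of Birc5 over the 3 samples overlapped those of Ccna2 and Top2a, so their order is not resolved. At the low end stood Cenpf (10.0 ± 0.610), Cdc25c (10.6 ± 0.868) and Cdc25a (15.5 ± 2.09), and there Cdc25c overlapped Cenpf and Cenpf overlapped Wee1. Replicates were close: the median coefficient of variation over the 46 genes was 4.11% in WT, 3.38% in the libraries labelled Atm-/- and 3.67% in Sirt6-/-, with the largest value, 13.7%, for Cdc25a in WT. The genes together took 0.669% to 0.682% of the reads in WT, 0.801% to 0.830% in the libraries labelled Atm-/- and 0.583% to 0.619% in Sirt6-/-. After TMM scaling their summed level was 7067 to 7232 CPM in WT, 7624 to 7878 in the libraries labelled Atm-/- and 5820 to 6153 in Sirt6-/-, and the groups did not overlap.

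**Figure D1:**
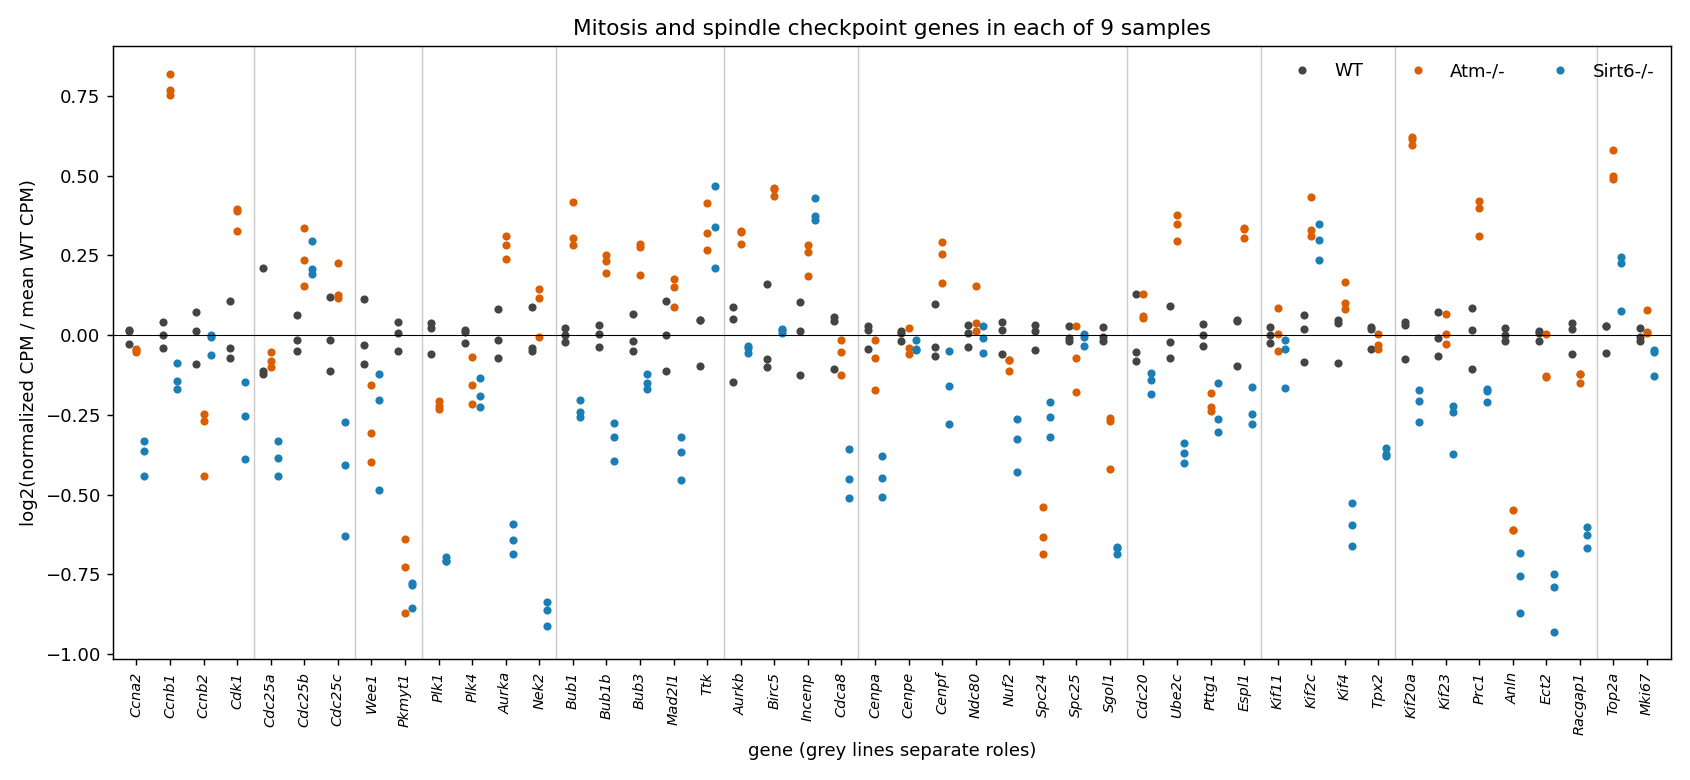
Level of each of the 46 genes in each of 9 samples, as log2 of normalized CPM over the WT mean of that gene; each dot is 1 sample and grey lines separate the roles. Dots of Sirt6-/- lie below 0 for most genes and reach their lowest values for Nek2, Ect2 and Anln, whereas dots of the libraries labelled Atm-/- lie on both sides, with Ccnb1, Kif20a and Top2a highest.

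The comparisons ask how the expression program differs between MEFs labelled WT, Atm-/- and Sirt6-/-. Where a genotype stands for a single line, loss of ATM or SIRT6 cannot be told apart from other differences of that line. In Sirt6-/-, most of the 46 genes were lower than in WT. All 46 genes were tested; 33 were lower and 5 higher, and 8 did not pass the test (edgeR's quasi-likelihood test, Benjamini-Hochberg adjusted p under 0.05). Over all 13206 genes tested, 37.4% were lower and 39.2% higher. The share of the 46 genes that were lower, 71.7%, stood above this background and the share that were higher, 10.9%, below it. The median log2 fold change of the 46 genes was -0.25, against 0.024 for all genes tested. The changes were small in size. No member reached a 2-fold difference (0 of 46 by edgeR, also 0 at an unadjusted p under 0.05 and 0 by DESeq2), whereas 11.8% of all genes tested were at least 2-fold lower and 17.5% at least 2-fold higher. All genes tested include weakly expressed ones, and this background was not matched for level in any of the comparisons. The largest change among the 46 genes was 1.83-fold, for Nek2. Scaling to library totals in place of TMM left 26 genes lower and 5 higher. The medians were then -0.16 for the 46 genes and 0.11 for all genes tested, and the share of all genes called was not determined. Bub3, Ccnb1, Cdc20, Cenpf, Plk4, Prc1 and Wee1 stayed below WT but lost their call with that scaling. Cdc20 and Cenpf also lost it when 10 counts in every sample were required.

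In the libraries labelled Atm-/-, the same genes split in both directions against WT. By edgeR, 18 of 46 were higher, 10 lower and 18 not called, against 34.7% higher and 33.6% lower among the 13283 genes tested; the shares of the mitotic genes, 39.1% and 21.7%, were near this background for higher calls and below it for lower calls. Their median log2 fold change was 0.068, and that of all genes 0.015. Again 0 of 46 genes differed at least 2-fold (0 at an unadjusted p under 0.05 and 0 by DESeq2), where 12.6% of all genes were at least 2-fold higher and 9.85% at least 2-fold lower. Scaling to library totals in place of TMM raised the log2 fold change of the median gene by 0.16 and gave 30 members higher and 5 lower. The medians were then 0.23 for the 46 genes and 0.18 for all genes tested. The share of all genes called with this scaling was not determined, so these counts cannot be set against the shares above. Racgap1 and Plk4 then lost their lower call and turned to 0.025 and 0.011, and Plk1, Pttg1 and Wee1 lost theirs without turning. Ccna2, Cenpe and Tpx2, uncalled with TMM, were called higher at 0.11, 0.13 and 0.13. Cdc25a, Cdca8, Cenpa, Nuf2, Spc25 and Ect2 turned positive and were called with neither scaling. The same scaling moved the median gene by 0.090 between Sirt6-/- and WT and by -0.059 between Sirt6-/- and the libraries labelled Atm-/-, and turned no called member there, although 7 and 2 uncalled ones changed sign; between the mutants it ended the higher call of Incenp.

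Compared directly, Sirt6-/- was below the libraries labelled Atm-/- for 32 of 46 genes and above them for 3, and 11 were not called (edgeR). Among all 13460 genes tested, 38.0% were lower and 37.8% higher in Sirt6-/-. The median of the 46 genes was -0.36 on the log2 scale, and that of all genes -0.0021. None of the 46 reached 2-fold (0 by edgeR, 0 at an unadjusted p under 0.05, 0 by DESeq2), against 11.3% of all genes at least 2-fold lower and 14.2% at least 2-fold higher; Nek2, Aurka and Ccnb1 came closest. The comparisons share samples, so their values are given side by side and not related to each other.

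**Figure D2:**
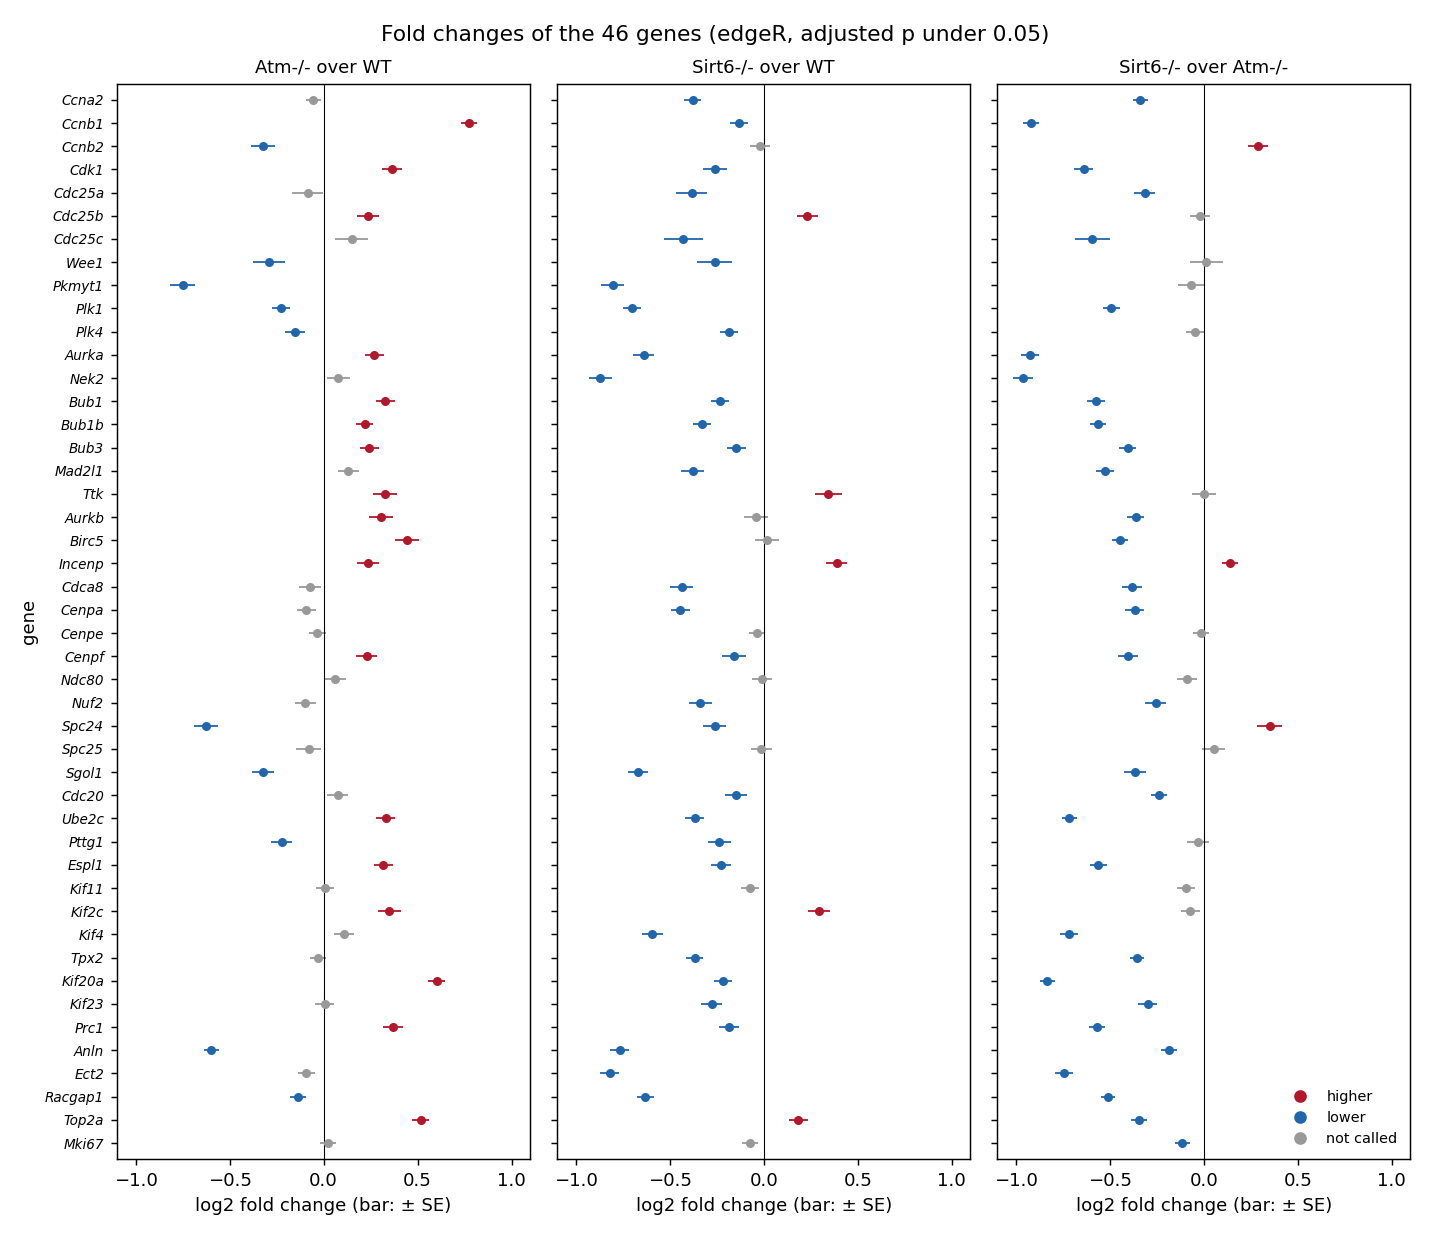
Log2 fold change (x axis, bars ± SE from edgeR) of the 46 genes (y axis) in the 3 comparisons, with red for genes called higher, blue for lower and grey for genes not called at an adjusted p of 0.05. In the middle and right panels 33 and 32 genes are blue, and in the left panel 18 are red and 10 blue.

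**Figure D3:**
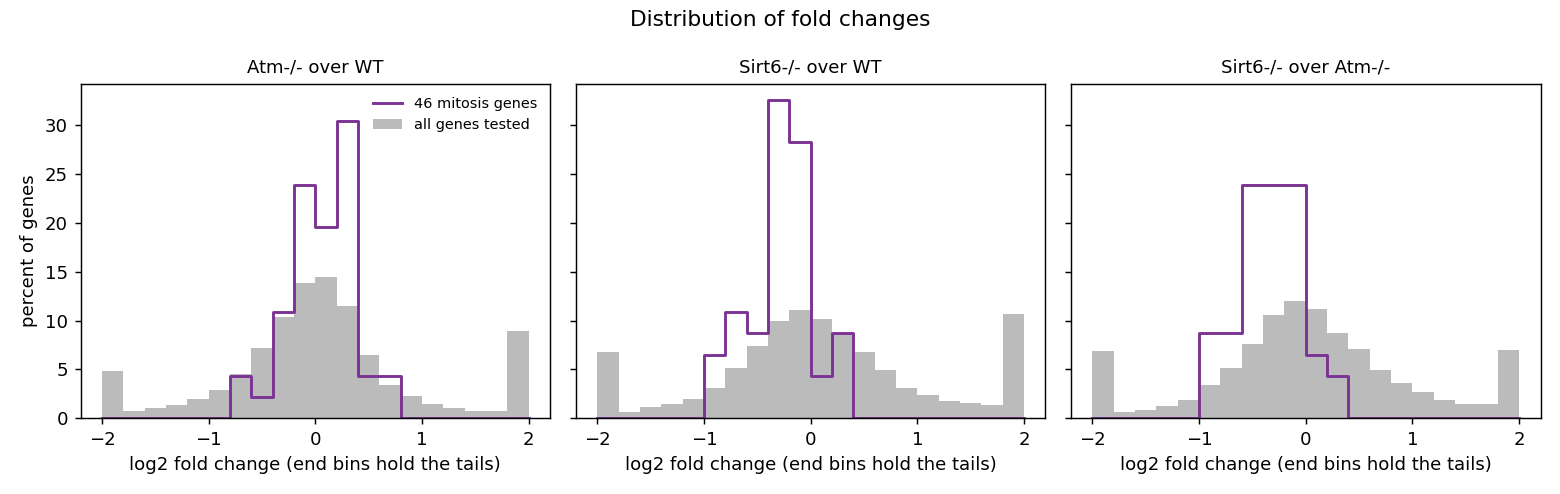
Percent of genes (y axis) in bins of log2 fold change (x axis) for all genes tested (grey bars) and the 46 mitosis genes (purple line); the end bins hold the tails. The purple line lies within 1 unit of 0 in each panel, where 77.0%, 70.3% and 74.1% of all genes lie, and is shifted to the left of 0 in the panels of Sirt6-/-.

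Among Cdk1 and its cyclins, cyclin B1 had the largest change in the libraries labelled Atm-/- and cyclin A2 in Sirt6-/-, both against WT. Ccnb1, which encodes cyclin B1 (chr13:100778650-100786570, GRCm38, GENCODE M21, minus strand), had 166, 157 and 161 normalized CPM in WT, 284, 275 and 271 in the libraries labelled Atm-/-, and 152, 146 and 143 in Sirt6-/-. The 3 groups did not overlap, with the libraries labelled Atm-/- highest (Atm-/- over WT, log2 fold change 0.77, SE 0.044, edgeR adjusted p = 1.1e-09). The fall of Ccnb1 in Sirt6-/- was small (log2 fold change -0.13, SE 0.047, edgeR adjusted p = 0.019) and lost its call without Sirt6-/- replicate 2 (-0.13, adjusted p = 0.062) or replicate 3 (-0.11, adjusted p = 0.071). Ccnb2, the gene of the related cyclin B2, had 109.6, 105 and 97.7 normalized CPM in WT, 86.4, 87.7 and 76.7 in the libraries labelled Atm-/-, and 99.7, 104 and 104 in Sirt6-/-. Here the libraries labelled Atm-/- were the lowest (log2 fold change -0.32, SE 0.063, edgeR adjusted p = 0.00036) and Sirt6-/- overlapped WT (log2 fold change -0.021, SE 0.054, edgeR adjusted p = 0.73). Cdk1, the kinase both cyclins activate, had 177, 200.4 and 181 normalized CPM in WT, 245, 244 and 234 in the libraries labelled Atm-/-, and 156, 168 and 142 in Sirt6-/-. It rose in the libraries labelled Atm-/- (log2 fold change 0.36, SE 0.052, edgeR adjusted p = 2e-05) and fell in Sirt6-/- (log2 fold change -0.26, SE 0.064, edgeR adjusted p = 0.0019), without overlap of the groups. Cyclin A2 (Ccna2), which also acts in S phase, fell in Sirt6-/- (log2 fold change -0.38, SE 0.045, edgeR adjusted p = 2.7e-06) and gave -0.056 ± 0.04 against WT in the libraries labelled Atm-/- (log2 fold change ± SE, not called).

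Genes that set the phosphorylation of Cdk1 differed in direction. Pkmyt1, an inhibitory kinase of Cdk1 (chr17:23726336-23736735, plus strand), had 69.7, 71.5 and 67.1 normalized CPM in WT, 38.0, 41.9 and 44.6 in the libraries labelled Atm-/-, and 40.3, 38.3 and 40.6 in Sirt6-/-. Both mutants were below every WT sample, and they overlapped each other (Atm-/- over WT, log2 fold change -0.75, SE 0.067, edgeR adjusted p = 1.7e-07; Sirt6-/- over WT, log2 fold change -0.80, SE 0.059, edgeR adjusted p = 1.2e-08). Wee1, the other inhibitory kinase, fell less in both, with log2 fold changes ± SE of -0.29 ± 0.084 and -0.26 ± 0.094; the latter lost its call without Sirt6-/- replicate 3 (-0.16, edgeR adjusted p = 0.12). Of the activating phosphatases, Cdc25b rose in both (0.24 ± 0.058 in the libraries labelled Atm-/-, 0.23 ± 0.054 in Sirt6-/-). Cdc25a and Cdc25c fell in Sirt6-/- against WT (-0.38 ± 0.084 and -0.43 ± 0.11). In the libraries labelled Atm-/- their values were -0.085 ± 0.081 and 0.15 ± 0.086, not called, and both were lower in Sirt6-/- when the mutants were compared directly (-0.31 ± 0.057 and -0.59 ± 0.093).

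The centrosome and spindle kinases were the role with the lowest median in Sirt6-/-, -0.67 against WT. All 4 of its genes fell there, where 37.4% of all genes tested were lower. Nek2, a centrosome kinase (chr1:191821444-191833050, plus strand), had 88.7, 81.2 and 80.7 normalized CPM in WT, 92.3, 83.2 and 90.6 in the libraries labelled Atm-/-, and 46.8, 45.98 and 44.4 in Sirt6-/-. Sirt6-/- stood below the other 6 samples (log2 fold change -0.87, SE 0.06, edgeR adjusted p = 5.2e-09 against WT; log2 fold change -0.96, SE 0.055, edgeR adjusted p = 1.7e-12 against the libraries labelled Atm-/-). Aurka, the Aurora kinase of the spindle poles (chr2:172356190-172370535, minus strand), had 117, 105 and 109.6 normalized CPM in WT, 135, 137 and 131 in the libraries labelled Atm-/-, and 70.9, 73.4 and 68.8 in Sirt6-/-. Its 3 groups were apart, with a rise in the libraries labelled Atm-/- (log2 fold change 0.27, SE 0.052, edgeR adjusted p = 0.00033) and a larger fall in Sirt6-/- (log2 fold change -0.64, SE 0.056, edgeR adjusted p = 7.9e-08). Plk1, the main Polo-like kinase of mitosis, had 151, 153 and 143 normalized CPM in WT, 128, 127 and 129 in the libraries labelled Atm-/-, and 91.0, 91.9 and 91.0 in Sirt6-/-. It was lower in both mutants, more so in Sirt6-/- (log2 fold change -0.70, SE 0.048, edgeR adjusted p = 4.5e-09 against WT and log2 fold change -0.49, SE 0.043, edgeR adjusted p = 1.9e-09 against the libraries labelled Atm-/-). Plk4, which starts centriole duplication, gave -0.15 ± 0.052 in the libraries labelled Atm-/- and -0.18 ± 0.049 in Sirt6-/-; the first call was lost without Atm-/- replicate 2 (-0.14, adjusted p = 0.061), Atm-/- replicate 3 (-0.11, adjusted p = 0.12) or WT replicate 3 (-0.14, adjusted p = 0.052).

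Spindle checkpoint genes also parted by genotype. In the libraries labelled Atm-/-, 4 of 5 were higher than WT by edgeR, against 34.7% of all genes tested. In Sirt6-/- 4 of 5 were lower than WT, against 37.4% of all genes tested. Bub1, a kinase that recruits the checkpoint to kinetochores, had 108, 104 and 106 normalized CPM in WT, 142, 131 and 129 in the libraries labelled Atm-/-, and 89.7, 92.0 and 88.7 in Sirt6-/-. Bub1b, the gene of BubR1, an inhibitor of the anaphase-promoting complex, had 178, 169.7 and 174 normalized CPM in WT, 207, 204 and 199 in the libraries labelled Atm-/-, and 144, 139.5 and 132 in Sirt6-/-. In both genes the groups stood in the order Sirt6-/-, WT, Atm-/- with no overlap (Bub1, 0.33 ± 0.051 and -0.23 ± 0.048; Bub1b, 0.22 ± 0.044 and -0.33 ± 0.048, for Atm-/- over WT and Sirt6-/- over WT). Bub3 gave 0.24 ± 0.051 and -0.15 ± 0.05, and its fall in Sirt6-/- was not called without Sirt6-/- replicate 1 (-0.13, adjusted p = 0.058) or WT replicate 3 (-0.12, adjusted p = 0.059). Mad2l1, the gene of the checkpoint protein Mad2, fell in Sirt6-/- (-0.38 ± 0.061); in the libraries labelled Atm-/- its value was 0.13 ± 0.058 (edgeR adjusted p = 0.055), close to the threshold. It was called with DESeq2 size factors (adjusted p = 0.044), with all 9 samples in one fit (0.037), with at least 10 counts in every sample (0.028), with library totals (0.30, adjusted p = 0.00038), and without Atm-/- replicate 3 (0.17, adjusted p = 0.048) or WT replicate 2 (0.19, adjusted p = 0.0045). Ttk, the checkpoint kinase Mps1, was the exception: it had 53.0, 53.0 and 47.9 normalized CPM in WT, 68.3, 64.1 and 61.7 in the libraries labelled Atm-/-, and 64.8, 70.9 and 59.4 in Sirt6-/-. Both mutants were above WT (log2 fold change 0.33, SE 0.065, edgeR adjusted p = 0.0004, and log2 fold change 0.34, SE 0.072, edgeR adjusted p = 0.00058).

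Of the chromosomal passenger complex, which corrects faulty kinetochore attachments, 3 of 4 genes were higher in the libraries labelled Atm-/- than in WT. The share over all genes tested was 34.7%. Birc5, the gene of survivin, had 102, 120.5 and 101 normalized CPM in WT, 146, 148 and 148 in the libraries labelled Atm-/-, and 109, 108 and 109 in Sirt6-/-. Only the libraries labelled Atm-/- stood apart from WT (log2 fold change 0.44, SE 0.063, edgeR adjusted p = 1.9e-05; Sirt6-/- over WT, log2 fold change 0.015, SE 0.064, edgeR adjusted p = 0.84), and Aurkb, the kinase of the complex, gave 0.30 ± 0.062 and -0.043 ± 0.064. Incenp, its scaffold (chr19:9872296-9899551, minus strand), had 156, 146 and 133 normalized CPM in WT, 174, 176 and 165 in the libraries labelled Atm-/-, and 186, 195 and 188 in Sirt6-/-. It was above WT in both mutants and highest in Sirt6-/- (log2 fold change 0.39, SE 0.057, edgeR adjusted p = 1.9e-05), where it was the largest rise among the 46 genes. Cdca8 (borealin) fell in Sirt6-/- (-0.44 ± 0.061) and gave -0.072 ± 0.057 in the libraries labelled Atm-/-, not called. The 4 subunits of one complex gave 1 fall, 1 rise and 2 uncalled values in Sirt6-/-.

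Kinetochore genes included 3 of the 4 members that were not called in any reported fit, as well as falls in both mutants. Ndc80, Nuf2, Spc24 and Spc25 encode the 4 subunits of the microtubule-binding Ndc80 complex. Spc24 had 51.7, 54.0 and 54.6 normalized CPM in WT, 34.4, 36.8 and 33.2 in the libraries labelled Atm-/-, and 42.8, 44.7 and 46.3 in Sirt6-/-. The libraries labelled Atm-/- were lowest and WT highest, with no overlap (log2 fold change -0.63, SE 0.065, edgeR adjusted p = 8.4e-07; Sirt6-/- over WT, log2 fold change -0.26, SE 0.061, edgeR adjusted p = 0.0014). Nuf2 fell in Sirt6-/- (-0.34 ± 0.06), whereas Ndc80 and Spc25 were called in none of the 3 comparisons with TMM and gave -0.011 ± 0.053 and -0.012 ± 0.057 there. Sgol1 (shugoshin), which protects centromeric cohesion, had 83.6, 85.5 and 83.0 normalized CPM in WT, 70.2, 62.8 and 69.8 in the libraries labelled Atm-/-, and 52.9, 53.1 and 52.3 in Sirt6-/-. The order of the groups was Sirt6-/-, Atm-/-, WT, again without overlap (Atm-/- over WT, log2 fold change -0.32, SE 0.058, edgeR adjusted p = 0.00019; Sirt6-/- over WT, log2 fold change -0.67, SE 0.053, edgeR adjusted p = 2.4e-08). Cenpa, the centromeric histone H3 variant, fell in Sirt6-/- (-0.44 ± 0.051) and was not called in the libraries labelled Atm-/- (-0.092 ± 0.052). Cenpf rose in the libraries labelled Atm-/- (0.23 ± 0.056), and its lower level in Sirt6-/- (-0.16 ± 0.064, with overlap of the groups) was not called without Sirt6-/- replicate 2 (-0.16, adjusted p = 0.083), Sirt6-/- replicate 3 (-0.10, adjusted p = 0.18) or WT replicate 1 (-0.12, adjusted p = 0.11). Cenpe, a kinetochore motor, was called in no comparison with TMM and gave -0.033 ± 0.045 and -0.034 ± 0.043 against WT.

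All 4 genes of anaphase onset were lower in Sirt6-/- than in WT, against 37.4% of all genes tested. Ube2c, whose promoter is shown above, had 184, 171 and 165 normalized CPM in WT, 220.4, 213 and 225 in the libraries labelled Atm-/-, and 134, 131 and 137 in Sirt6-/-. It was up in the libraries labelled Atm-/- (log2 fold change 0.33, SE 0.051, edgeR adjusted p = 4.1e-05) and down in Sirt6-/- (log2 fold change -0.37, SE 0.051, edgeR adjusted p = 1.3e-05). Espl1, the gene of separase, followed with 0.32 ± 0.049 and -0.23 ± 0.054. Pttg1, which encodes securin, the inhibitor of separase, was lower in both mutants (-0.22 ± 0.056 and -0.24 ± 0.061). Cdc20 gave 0.074 ± 0.057, not called, in the libraries labelled Atm-/- (0.14, adjusted p = 0.025 without WT replicate 1) and -0.15 ± 0.057 in Sirt6-/-. The second call was lost in 4 of the 6 fits that left out a sample: without Sirt6-/- replicate 1, 2 or 3 (adjusted p = 0.11, 0.053 and 0.065) or WT replicate 1 (-0.091, adjusted p = 0.13).

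Spindle motors and assembly factors were mixed. Kif4, a chromosome-bound kinesin, had 130.3, 119 and 131 normalized CPM in WT, 142, 136 and 134 in the libraries labelled Atm-/-, and 84.1, 88.3 and 80.3 in Sirt6-/-. It fell in Sirt6-/- (log2 fold change -0.59, SE 0.056, edgeR adjusted p = 1.9e-07), and its value in the libraries labelled Atm-/- was 0.11 ± 0.051, not called. Tpx2, the activator of Aurora A, also fell in Sirt6-/- (-0.37 ± 0.043). Kif2c, a microtubule-depolymerizing kinesin, had 68.3, 66.2 and 61.8 normalized CPM in WT, 82.3, 88.2 and 81.1 in the libraries labelled Atm-/-, and 77.0, 83.2 and 80.4 in Sirt6-/-. It rose in both mutants (log2 fold change 0.35, SE 0.059, edgeR adjusted p = 0.0001, and log2 fold change 0.29, SE 0.059, edgeR adjusted p = 0.00034). Kif11, the motor that separates the spindle poles, was not called in any of the 3 reported fits, and gave -0.093 ± 0.047 between the mutants (edgeR adjusted p = 0.077). That difference was called with library totals (-0.15, adjusted p = 0.0068), with at least 10 counts in every sample (-0.10, adjusted p = 0.049), with a replicate block (-0.094, adjusted p = 0.043), and without Atm-/- replicate 3 (-0.13, adjusted p = 0.037) or Sirt6-/- replicate 2 (-0.12, adjusted p = 0.044). Library totals also called it higher in Atm-/- over WT (0.17, adjusted p = 0.0049).

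All 6 cytokinesis genes were lower in Sirt6-/- than in WT and than in the libraries labelled Atm-/-. Over all genes tested, 37.4% and 38.0% were lower in these comparisons. Anln, the gene of anillin, the scaffold of the contractile ring (chr9:22332012-22389188, minus strand), had 566, 574 and 558 normalized CPM in WT, 387, 370.4 and 371 in the libraries labelled Atm-/-, and 335, 353 and 309 in Sirt6-/-. Both mutants were below every WT sample (Atm-/- over WT, log2 fold change -0.60, SE 0.041, edgeR adjusted p = 7.7e-09; Sirt6-/- over WT, log2 fold change -0.77, SE 0.051, edgeR adjusted p = 3.2e-09). Ect2, the exchange factor that activates RhoA at the cell equator (chr3:27097222-27153878, minus strand), had 271, 277 and 276 normalized CPM in WT, 275, 251 and 251 in the libraries labelled Atm-/-, and 159, 163 and 144 in Sirt6-/-. Sirt6-/- stood apart from the other 6 samples (log2 fold change -0.82, SE 0.051, edgeR adjusted p = 1.8e-09), and the libraries labelled Atm-/- overlapped WT (-0.092 ± 0.047, called only without Atm-/- replicate 1, at -0.13 and adjusted p = 0.034). Racgap1, the subunit of the centralspindlin complex that binds Ect2, had 387, 392 and 366 normalized CPM in WT, 351, 350.3 and 344 in the libraries labelled Atm-/-, and 247, 252 and 240.3 in Sirt6-/-. It fell in Sirt6-/- (log2 fold change -0.63, SE 0.045, edgeR adjusted p = 8.8e-09); the small fall in the libraries labelled Atm-/- (log2 fold change -0.14, SE 0.043, edgeR adjusted p = 0.0099) was not called without Atm-/- replicate 3 (-0.12, adjusted p = 0.061) and turned under library totals as given above. Kif23, the motor of the same complex, fell by less (-0.28 ± 0.055). Kif20a, a kinesin of the central spindle, had 214, 216 and 199 normalized CPM in WT, 322, 317 and 321 in the libraries labelled Atm-/-, and 186, 182 and 174 in Sirt6-/-. Its 3 groups were apart, with a rise in the libraries labelled Atm-/- (log2 fold change 0.60, SE 0.045, edgeR adjusted p = 2.2e-08) and a fall in Sirt6-/- (log2 fold change -0.22, SE 0.049, edgeR adjusted p = 0.0011). Prc1, the microtubule bundler of the central spindle, did likewise (0.37 ± 0.055 and -0.18 ± 0.053).

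Top2a and Mki67, which are widely used to mark proliferating cells, differed in their calls against WT with TMM. Top2a, the gene of DNA topoisomerase II alpha, had 545, 579 and 579 normalized CPM in WT, 848, 802 and 797 in the libraries labelled Atm-/-, and 664, 672 and 597 in Sirt6-/-. Both mutants were above WT (log2 fold change 0.52, SE 0.043, edgeR adjusted p = 7.8e-08, and log2 fold change 0.18, SE 0.051, edgeR adjusted p = 0.0045). Mki67, the gene of the Ki-67 antigen, had 426, 414 and 418 normalized CPM in WT, 443, 421 and 422 in the libraries labelled Atm-/-, and 405, 406 and 384 in Sirt6-/-. With TMM it was not called against WT (log2 fold change 0.024, SE 0.042, edgeR adjusted p = 0.63; log2 fold change -0.074, SE 0.043, edgeR adjusted p = 0.13, which passed only without WT replicate 2 at -0.097 and adjusted p = 0.048). With library totals Mki67 was higher in Atm-/- over WT (0.19, edgeR adjusted p = 0.00089), as Top2a was with either scaling. Between the mutants it was lower in Sirt6-/- (log2 fold change -0.11, SE 0.038, edgeR adjusted p = 0.011), and not called without Atm-/- replicate 1 (-0.089, adjusted p = 0.066) or Sirt6-/- replicate 3 (-0.089, adjusted p = 0.051).

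Set side by side over the 3 comparisons, 13 genes were lower in Sirt6-/- than in both other groups and not called between the libraries labelled Atm-/- and WT: Ccna2, Cdc25a, Cdc25c, Nek2, Mad2l1, Cdca8, Cenpa, Nuf2, Cdc20, Kif4, Tpx2, Kif23 and Ect2. With library totals Ccna2, Cdc25c, Nek2, Mad2l1, Cdc20, Kif4, Tpx2 and Kif23 of them were called higher in the libraries labelled Atm-/- than in WT. A further 11 stood in the order Sirt6-/-, WT, Atm-/-, each step passing the test: Ccnb1, Cdk1, Aurka, Bub1, Bub1b, Bub3, Cenpf, Ube2c, Espl1, Kif20a and Prc1. With library totals the step from Sirt6-/- to WT was no longer called for Ccnb1, Bub3, Cenpf and Prc1. Lower than WT in both mutants were 9 genes, Plk1, Sgol1, Anln, Racgap1, Wee1, Pkmyt1, Plk4, Pttg1 and Spc24. With library totals Racgap1 and Plk4 turned in the libraries labelled Atm-/-, and Plk1, Pttg1 and Wee1 lost their lower call there. Plk4 and Wee1 also lost their lower call in Sirt6-/- over WT. Higher in both were 5 genes, Cdc25b, Ttk, Kif2c, Incenp and Top2a. Cenpe, Ndc80, Spc25 and Kif11 were not called in any of the 3 reported fits. With library totals Cenpe, Ndc80 and Kif11 were called higher in Atm-/- over WT, and Ndc80 and Kif11 lower in Sirt6-/- over Atm-/-. The comparisons share samples, and the share of all genes with each of these patterns was not determined. The counts of genes per pattern therefore only list the members.

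Ratios of the reads of a pair of genes within a sample do not depend on the scaling of the library; 5 pairs, chosen after their values were seen, are given as a description without a test. The Ccnb1 to Ccnb2 ratio was 1.55 ± 0.0868 in WT, 3.32 ± 0.206 in the libraries labelled Atm-/- and 1.43 ± 0.0773 in Sirt6-/- (mean ± SD, n = 3). The libraries labelled Atm-/- were apart from the other 6 samples, which overlapped. Reads of Cdk1 over those of its inhibitor Pkmyt1 were 2.68 ± 0.131, 5.83 ± 0.604 and 3.92 ± 0.439 in the same order, and those of Top2a over Mki67 were 1.35 ± 0.0650, 1.90 ± 0.0120 and 1.62 ± 0.0523. For Kif20a over Anln, both of cytokinesis, the values were 0.370 ± 0.0118, 0.851 ± 0.0170 and 0.544 ± 0.0253, and for Ccna2 over Mki67 they were 0.796 ± 0.0242, 0.753 ± 0.0211 and 0.646 ± 0.0357. In the last 4 pairs no group overlapped another.

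**Figure D4:**
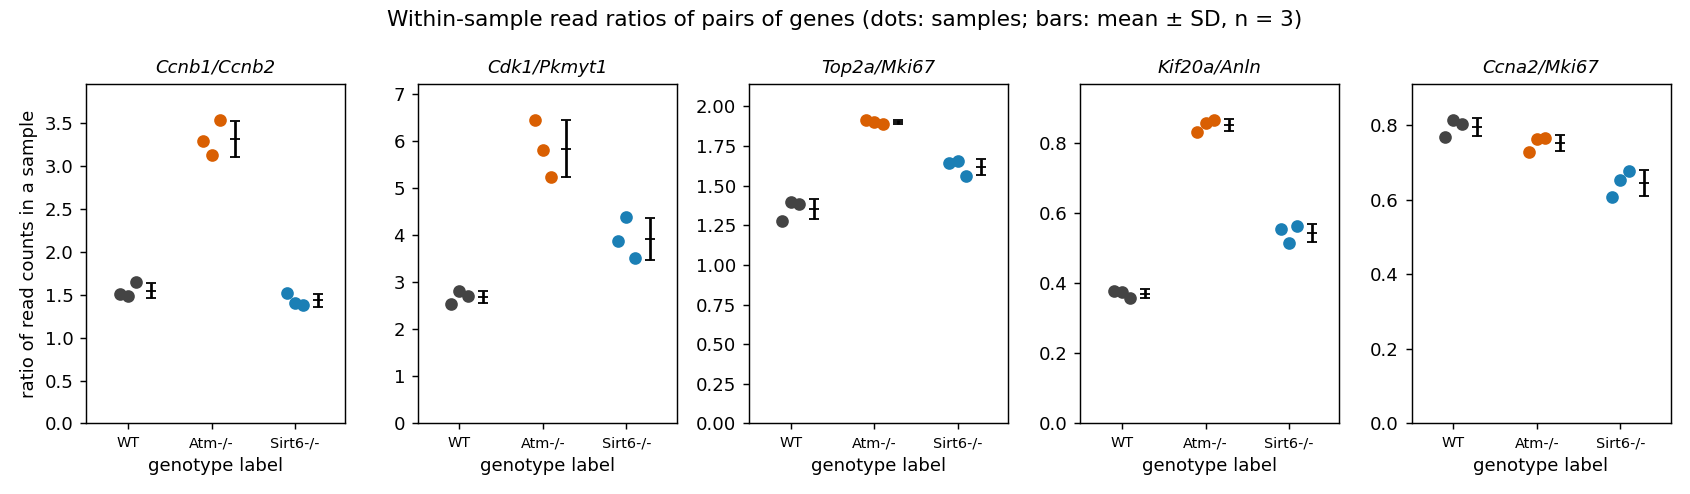
Ratio of read counts of 5 gene pairs in each sample (dots) by genotype label, with the mean ± SD (n = 3) beside them; the y axes start at 0 and differ in range. The libraries labelled Atm-/- have the highest ratio in the first 4 pairs, and Sirt6-/- the lowest in Ccna2/Mki67.

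Genes with and without TTTGAA, the only CHR letters searched, were set side by side. In Sirt6-/- over WT, the median log2 fold change was -0.23 for the 25 genes with TTTGAA in the window and -0.23 for the 12 without it; in Atm-/- over WT the medians were 0.074 and 0.023, and between the mutants -0.38 and -0.34. Genes without TTTGAA include both Nek2, the largest fall in Sirt6-/-, and Ccnb1, the largest rise in the libraries labelled Atm-/-. No test was made of these medians.

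Other mitotic genes, taken from 6 lists (anaphase-promoting complex, condensin, cohesin, other kinetochore genes, other spindle genes, other G2/M regulators), went both ways in Sirt6-/-. Of 121 tested, 52 were lower (43.0%, against 37.4% of all genes) and 36 higher (29.8%, against 39.2%) than in WT, with a median log2 fold change of -0.062. In the libraries labelled Atm-/-, 51 were higher (42.1%, against 34.7%) and 25 lower (20.7%, against 33.6%; median 0.086), and 66 were lower (54.5%, against 38.0%) and 23 higher (19.0%, against 37.8%) in Sirt6-/- than in those libraries (median -0.19). Against the same background of 39.2% higher and 37.4% lower, 8 of 14 genes of the anaphase-promoting complex were higher and 2 lower in Sirt6-/- than in WT (median 0.23), and 6 of 11 cohesin genes were higher and 5 lower (median 0.15), whereas 19 of 32 other spindle genes and 14 of 24 other G2/M regulators were lower (medians -0.20 and -0.24). Other kinetochore genes gave 9 higher and 10 lower of 32 (median -0.041), and condensin 4 higher and 2 lower of 8 (median 0.090). The same lists in the libraries labelled Atm-/- had medians between -0.069, for the other G2/M regulators, and 0.24, for condensin, of which 6 of 8 genes were higher (background 34.7%). Among the tested genes of these lists that did not overlap, the largest fall in Sirt6-/- was that of Mybl2, the transcription factor B-Myb that acts on G2/M genes, with 37.2, 36.1 and 34.8 normalized CPM in Sirt6-/-, 80.7, 92.9 and 80.4 in WT, and 103, 101 and 109 in the libraries labelled Atm-/- (Sirt6-/- over WT, log2 fold change -1.23, SE 0.069, edgeR adjusted p = 4.6e-10; Sirt6-/- over Atm-/-, -1.54, SE 0.055, adjusted p = 4.6e-16). Unlike every one of the 46 genes, Mybl2 differed by more than 2-fold. The largest rises were Kif3a in Sirt6-/- over WT (1.33, SE 0.089, adjusted p = 3.5e-09), Nek9 in Sirt6-/- over Atm-/- (0.85, SE 0.052, adjusted p = 4.8e-12) and Cenph in Atm-/- over WT (1.13, SE 0.083, adjusted p = 1.7e-08), and the largest fall in the libraries labelled Atm-/- was that of Haus4 (-1.17, SE 0.083, adjusted p = 1.2e-08). Of 24 G1/S and replication genes, 18 were lower (75.0%, against 37.4%) and 2 higher (8.33%, against 39.2%) in Sirt6-/- than in WT (median -0.45), and 13 were higher (54.2%, against 34.7%) and 5 lower (20.8%, against 33.6%) in the libraries labelled Atm-/- (median 0.20). Between the mutants, 22 were lower in Sirt6-/- (91.7%, against 38.0%; median -0.50).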

How the data were processed

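Poly(A) RNA of 9 MEF samples (3 WT, 3 Atm-/-, 3 Sirt6-/-; groups from the sample titles) was sequenced on an Illumina instrument. For each sample the authors deposited, per gene, an unnormalized read count, a transcript length and an RPKM value. The submitters' processing notes name the build mm10; aligner and counting tool are not given in the sources used here. Whether the samples of a genotype are separate cultures is not stated, so p-values may measure technical spread only.

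Each pair of genotypes was fitted separately to the deposited counts of all genes with edgeR 4.0.16 in R 4.3.3 (filterByExpr, TMM, glmQLFit with a prior count of 0.125, glmQLFTest, Benjamini-Hochberg adjustment over all genes tested, threshold 0.05). SEs were taken from the F statistic. RPKM as deposited served only to order genes by level and to check markers. The procedure was run on simulated counts in which a small set of genes changed 2-fold and the others did not change. That setting does not test smaller changes, or data in which most genes pass the test, as here. Samples of a genotype differed by more than counting noise (chi-square per gene 5.24 to 16.4). Alternatives were DESeq2 1.42.0 size factors and Wald test, library totals, 2 filters, a fit of all 9 samples, a replicate block and leaving out each sample.

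The members, the other lists and the motifs were chosen with earlier results of these data known. Every member is named; of the 6 lists of other mitotic genes, the largest rise and fall per comparison that passed the test without overlap. Promoters come from RefSeq (GRCm38.p6), with the first window listed per gene, and positions from GENCODE M21.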

Additional observations from a re-analysis of the deposited data

How the results depend on the processing

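The 3 medians kept their sign in every alternative run. Shares over all genes were determined for the reported fits only. Counts and medians were moved most by scaling to library totals: 30 genes were then higher and 5 lower in Atm-/- than WT (18 and 10 with TMM), the medians became 0.23 (Atm-/- over WT), -0.16 (Sirt6-/- over WT) and -0.42 (Sirt6-/- over Atm-/-), and 1 gene, Nek2, was at least 2-fold lower in Sirt6-/- than Atm-/-. With that scaling the Atm-/- over WT values of Ccna2 (0.11), Cenpe (0.13), Tpx2 (0.13), Plk4 (0.011) and Racgap1 (0.025) changed sign and were called with at least 1 of the scalings; 6 further genes changed sign and were called with neither. Leaving out 1 sample gave 18 to 19 genes higher and 8 to 11 lower in Atm-/- than WT (median 0.043 to 0.084), 5 higher and 29 to 34 lower in Sirt6-/- than WT (median -0.27 to -0.22), and 3 higher and 31 to 33 lower in Sirt6-/- than Atm-/- (median -0.36 to -0.34), with 0 to 1 at least 2-fold lower (Nek2, without Atm-/- replicate 2) in the last. Replicate numbers did not pair the samples: deviations of same-numbered samples correlated at -0.020 to 0.076. With the number as a block, 18 genes were higher and 10 lower in Atm-/- than WT, 5 and 33 in Sirt6-/- than WT, and 3 and 33 in Sirt6-/- than Atm-/-, where Kif11 was added. With 3 samples a group, differences near the SE of about 0.05 on the log2 scale could not be resolved.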
